A study of Arabidopsis thaliana with 9 samples.

Results

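Carboxylesterases of the plant CXE family belong to the alpha/beta hydrolase superfamily and cleave ester bonds in hormones, defence compounds and xenobiotics. CXE15 is known to inactivate strigolactones, the carotenoid-derived hormones that restrain shoot branching and that are perceived by the receptor D14, itself an alpha/beta hydrolase of another branch. The gibberellin receptors GID1A, GID1B and GID1C are relatives of the CXE proteins that bind a hormone without cleaving it.

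The genes described here are 10 members of that family in Arabidopsis thaliana, CXE15 (AT5G06570), CXE5 (AT1G49660), CXE6 (AT1G68620), CXE8 (AT2G45600), CXE12 (AT3G48690), CXE13 (AT3G48700), CXE16 (AT5G14310), CXE17 (AT5G16080), CXE18 (AT5G23530) and CXE20 (AT5G62180). They were taken by locus ID out of 27814 rows of the count table, with no threshold on a measured value in the rule, although the set was put together with earlier results of these data known, and all 10 were detected and passed the filter on low counts. The RefSeq annotation carries a CXE symbol for 7 of them. For CXE15, CXE6 and CXE8 it gives none, and the names are those under which the loci were chosen. CXE12 is known to activate an ester form of the herbicide 2,4-D, CXE8 has been linked to resistance against the fungus Botrytis cinerea, and CXE20 has been described as a protein that binds strigolactone.

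Polyadenylated RNA of untreated whole seedlings was sequenced in 3 libraries each of AtCXE15-OE, a line that overexpresses CXE15, atd14-1, a line mutated in D14, and the wild type Col-0, in whose background no other allele or agent is named. The labels give neither the promoter nor the number of independent lines behind AtCXE15-OE. They state the age as 8 days in one place and 10 days in another, and leave unsaid whether replicate libraries were made from plants grown apart. A p-value here therefore weighs a difference against the variation among replicate libraries, part of which may be technical. In whole seedlings, fewer cells of a type and less RNA per cell cannot be told apart.

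The catalytic serine of these enzymes sits in a short turn called the nucleophile elbow. The coding sequence around it is shown for all 10 genes because it is the stretch in which the active sites of the family can be compared directly. Each line gives 15 bases on either side of the elbow, 5′ to 3′ on the coding strand, from RefSeq TAIR10.1, with the 5 codons of the elbow in capitals; the middle codon is that of the serine. All of it is coding sequence, and in CXE16 an intron interrupts the stretch in the genome.
CXE15 (chr5:2010486-2010530, minus strand): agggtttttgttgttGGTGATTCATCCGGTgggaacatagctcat
CXE5 (chr1:18379227-18379271, minus strand): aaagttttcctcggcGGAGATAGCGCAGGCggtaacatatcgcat
CXE6 (chr1:25766522-25766566, plus strand): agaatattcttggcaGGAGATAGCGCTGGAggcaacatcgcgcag
CXE8 (chr2:18790258-18790302, plus strand): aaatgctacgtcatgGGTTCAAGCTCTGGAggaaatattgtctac
CXE12 (chr3:18037654-18037698, minus strand): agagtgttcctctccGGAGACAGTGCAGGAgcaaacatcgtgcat
CXE13 (chr3:18039299-18039343, minus strand): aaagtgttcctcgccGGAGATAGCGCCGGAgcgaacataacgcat
CXE16 (chr5:4616390-4616924, plus strand, spliced): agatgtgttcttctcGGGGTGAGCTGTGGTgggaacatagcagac
CXE17 (chr5:5252995-5253039, minus strand): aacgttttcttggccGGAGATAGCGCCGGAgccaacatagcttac
CXE18 (chr5:7933834-7933878, minus strand): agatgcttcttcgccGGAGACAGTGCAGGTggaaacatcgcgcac
CXE20 (chr5:24979331-24979375, minus strand): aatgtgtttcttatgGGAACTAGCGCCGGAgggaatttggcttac

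The codon before the serine encodes aspartate in 7 of the 10 genes. It encodes another residue in the other 3, namely TCA in CXE8, GTG in CXE16 and ACT in CXE20. The serine codon is AGC or AGT in 9 genes and TCA in CXE15. Upstream of the elbow, CXE15 also carries the oxyanion hole, the histidine-glycine-glycine turn that stabilises the reaction intermediate, shown here with its 3 codons in capitals (chr5:2010744-2010782, minus strand).
CXE15 oxyanion hole: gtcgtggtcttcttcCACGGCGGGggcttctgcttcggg

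Coding sequences were 960 to 1341 bases long. The 45 pairs of members had identical bases in 42.2% to 84.2% of alignment columns, with a median of 50.3%. Columns with a gap count as not identical, so a difference in length lowers the value, as for CXE16, the longest at 1341 bases. CXE12 and CXE13 were the closest pair, at 84.2%, and lie next to each other on the minus strand of chromosome 3, at 18037046 to 18038234 and 18038648 to 18039879. Their longest stretch of identical coding sequence was 44 bases, so that a read no longer than this could match both without a mismatch. Whether this affected their counts was not tested. CXE15 shared 44.1% to 52.5% with the other members and no identical stretch over 14 bases. Outside the 10, CXE5 was closest to AT1G49640, at 75.3% with an identical stretch of 35 bases. CXE16 was closest to AT3G27320, at 72.4%, also with 35 bases.

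**Figure D1:**
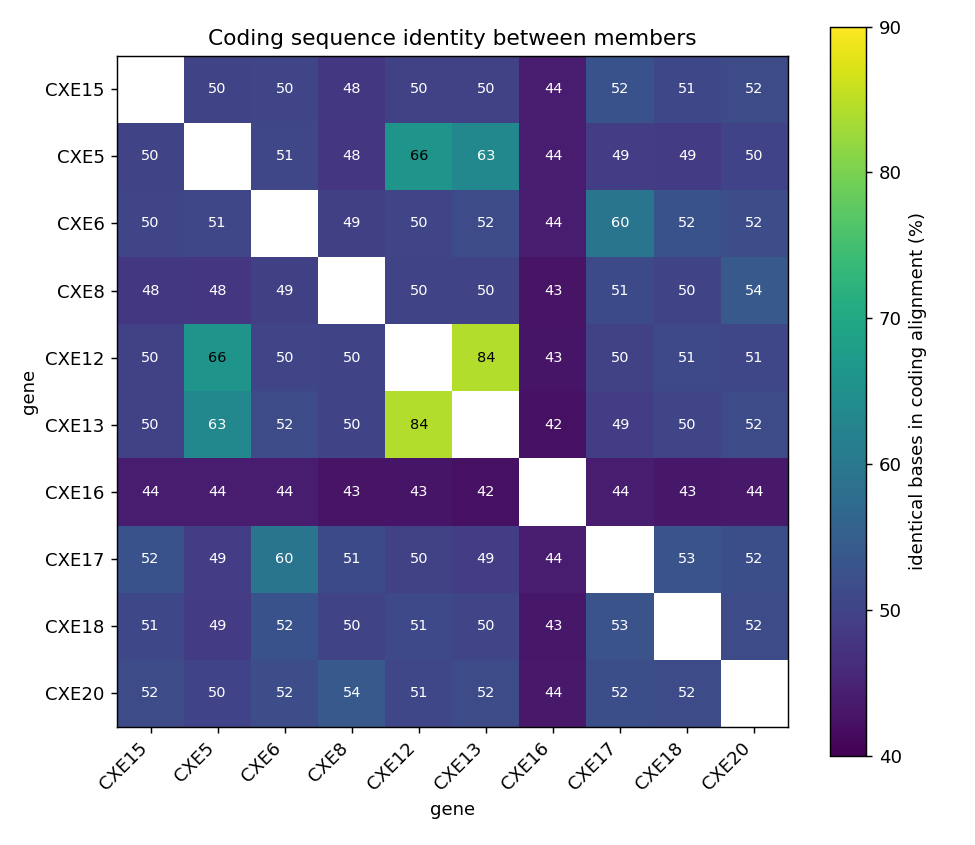
Percentage of alignment columns, gaps included, with identical bases between the coding sequences of the 10 genes. Both axes list the genes, and colour runs from 40% to 90%. CXE12 and CXE13 stand out at 84.2%, and CXE16 has its lowest value, 42.2%, with CXE13.

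The libraries held 37724263 to 54421069 counts, and a count of 3, taken as the floor, stood at 0.0542 to 0.0775 CPM (counts relative to the library total, scaled between libraries by the TMM method), a limit that covers counting error only. No pair of libraries within a group agreed to within sampling noise. Of the tissue markers, the summed level of 5 leaf genes was 13476 to 17742 CPM in AtCXE15-OE, 12301 to 16039 CPM in atd14-1 and 17280 to 18352 CPM in Col-0. Of these genes RBCS1A, whose row is over 100 kb long, overlapped between the lines, and the other 4 were each higher in AtCXE15-OE than in atd14-1 (edgeR adjusted p = 0.0002 to 0.00625). For 6 root genes the sum was 3972 to 4778, 4402 to 4784 and 4866 to 5127 CPM in the same order. PYK10 made up most of it, with means of 4315, 4313 and 4759 CPM, so the sum largely restates that gene. Against Col-0, log2 fold changes were above 0 in 1 root gene and below in 5 in AtCXE15-OE. In atd14-1 they were above 0 in 4 and below in 2, and edgeR called 0 of the 6 in either line. The summed level of 4 seed storage genes was 6.33 to 10.5 CPM in AtCXE15-OE, 11.3 to 18.2 CPM in atd14-1 and 0.695 to 3.71 CPM in Col-0, and that of 4 flower genes stayed at or under 5.37 CPM in every library.

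D14 averaged 44.5 ± 0.974 CPM in AtCXE15-OE, 6.74 ± 0.226 CPM in atd14-1 and 44.97 ± 0.317 CPM in Col-0 (SD, n = 3 each). It was lower in atd14-1 than in Col-0 by -2.74 ± 0.07 on the log2 scale (SE, edgeR quasi-likelihood test, Benjamini-Hochberg adjusted p = 1.52e-11). Reads of the gene were still counted in the mutant, and a count per gene does not show which part of the transcript they cover.

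CXE15, the gene named by the overexpressing line, was the most changed member. It had 964, 763 and 739 CPM in AtCXE15-OE (39758, 41385 and 37871 counts), against 2.94, 3.09 and 3.08 CPM in atd14-1 (114, 171 and 142 counts) and 3.73, 3.96 and 4.12 CPM in Col-0 (158, 154 and 173 counts). Every AtCXE15-OE library stood far above the other 6, and the 3 groups did not overlap. Expression in AtCXE15-OE was 209-fold that in Col-0, which is 7.70 ± 0.12 on the log2 scale (SE, edgeR adjusted p = 5.53e-12), and 270-fold that in atd14-1. Counts per gene do not separate transcripts of a transgene from those of the endogenous locus.

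The row that holds the CXE15 count carries coordinates that run far beyond the gene. RefSeq places the gene at 2007419 to 2011179 on the minus strand of chromosome 5, with 2 coding exons and a coding length of 1035 bases. In the table the row runs across 4755205 bases of chromosome 5 but is given a length of 1942 bases. The span holds 1343 other rows on either strand. The 688 annotated on the strand of the CXE15 row together averaged 1025070 counts in a Col-0 library, although the libraries did not mark the strand. The CXE15 row itself had 154 to 173 counts in Col-0. The CXE15 count is thus not a sum over that span, although which reads it took in beyond the gene cannot be read from the table. CXE16 and CXE17 lie inside the span. Other rows over 100 kb long cover CXE6 (AT1G67090, AT1G70370, AT1G73270 and AT1G79040), CXE8 (AT2G45700, AT2G45960, AT2G46080 and AT2G46550), CXE12 and CXE13 (AT3G46010 and AT3G53890), CXE16 (AT5G10470, AT5G14330 and AT5G15090), CXE17 (AT5G10470 and AT5G14320) and CXE20 (AT5G62700), and no row overlaps CXE5 or CXE18.

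**Figure D2:**
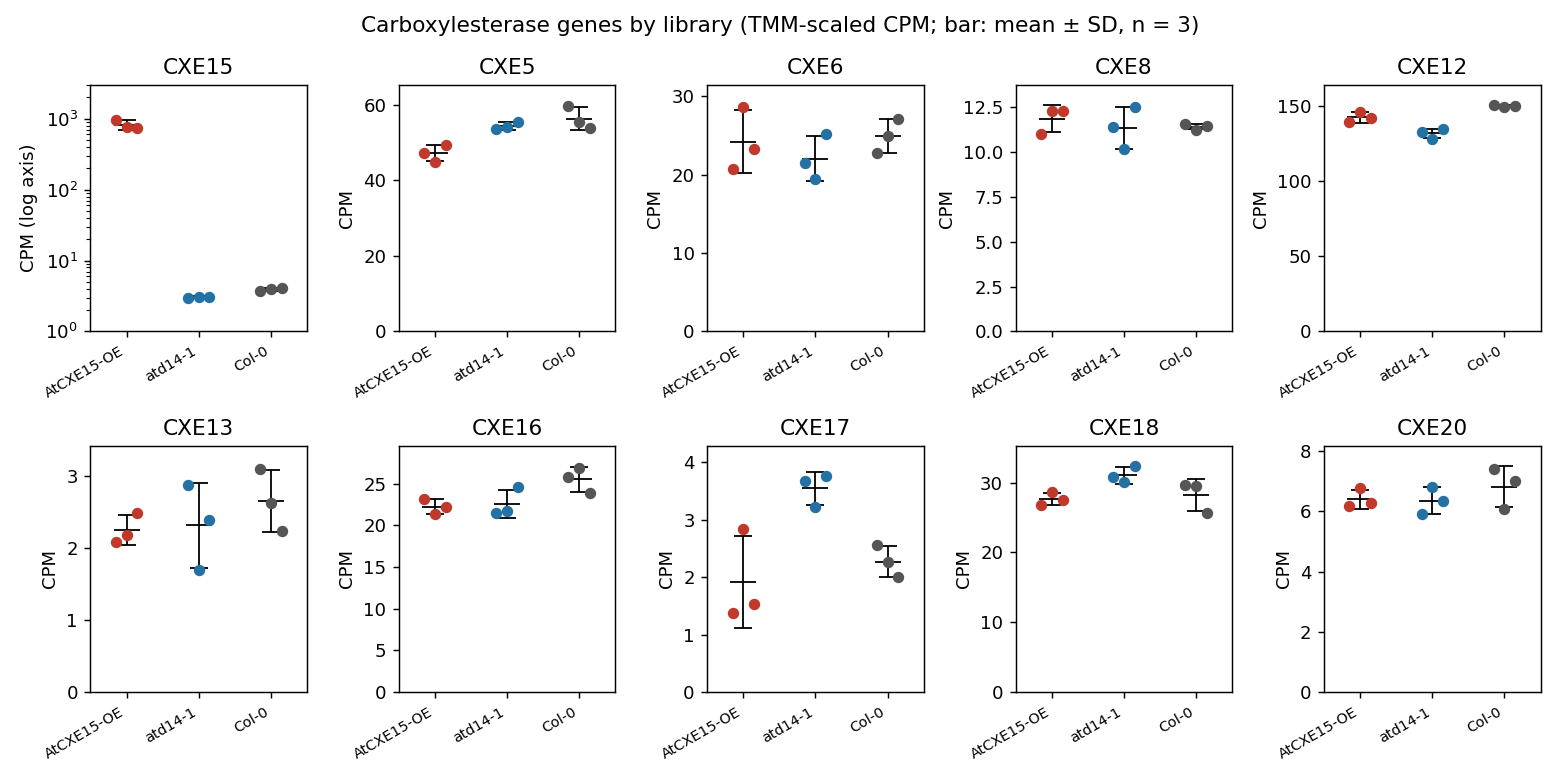
Level of each of the 10 genes in every library, in TMM-scaled CPM, for AtCXE15-OE, atd14-1 and Col-0; points are libraries, and bars give the mean ± SD of 3. The CXE15 panel has a log axis, on which the AtCXE15-OE libraries lie at 739 to 964 CPM and the other 6 at 2.94 to 4.12 CPM; the other panels start at 0.

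Next to the rise of CXE15 in AtCXE15-OE, CXE5 was the only other member whose difference from Col-0 passed the test, and it was lower. In all, 1 of 10 members rose and 1 fell at an adjusted p under 0.05, where 2.27% of all 21425 genes tested were called, 0.761% higher and 1.51% lower. The rise is the one the line was made for. The median log2 fold change of the members was -0.08, with 2 above 0 and 8 below, against a median of 0.0038 over all genes.

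CXE5 had 47.3, 44.9 and 49.2 CPM in AtCXE15-OE, against 59.6, 55.3 and 53.7 CPM in Col-0. All 3 AtCXE15-OE libraries lay below all 3 of Col-0, with a gap of the same order as the spread within a group. Its log2 fold change was -0.25 ± 0.06 (edgeR adjusted p = 0.0423). The call is close to the threshold: it was lost without Col-0 replicate 1 (adjusted p = 0.186) or 2 (0.102), without AtCXE15-OE replicate 1 (0.0601), 2 (0.164) or 3 (0.0620), and with scaling by library size alone (0.0848). In atd14-1 the gene had 53.5, 54.2 and 55.4 CPM, which overlaps the range of Col-0 (log2 fold change -0.05 ± 0.06, edgeR adjusted p = 0.693).

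CXE12 and CXE16 were the other members whose libraries did not overlap between AtCXE15-OE and Col-0, and neither passed the test. CXE12 had 139.5, 146.6 and 142.0 CPM in AtCXE15-OE and 151.0, 149.6 and 150.2 CPM in Col-0 (log2 fold change -0.07 ± 0.05, edgeR adjusted p = 0.541). CXE16 had 23.1, 21.4 and 22.2 CPM in AtCXE15-OE and 25.9, 26.9 and 23.8 CPM in Col-0 (log2 fold change -0.20 ± 0.08, edgeR adjusted p = 0.286). With CXE15 and CXE5 that makes 4 of 10 members without overlap, where 17.9% of all genes had none. For the remaining 6 members the groups overlapped and log2 fold changes ran from -0.24 in CXE13 and CXE17 to 0.05 in CXE8, with SEs of 0.07 to 0.26.

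In atd14-1, CXE15 and CXE12 were lower than in Col-0 and edgeR called no member higher. These are 2 of 10 members, where 11.9% of all genes were called, 5.06% higher and 6.87% lower, so the share is not far from that of all genes. The members' median log2 fold change was -0.14, with 2 above 0 and 8 below, against 0.0057 over all genes. An unadjusted p under 0.05 was reached by 4 members.

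CXE15 averaged 3.04 ± 0.08 CPM in atd14-1 and 3.94 ± 0.193 CPM in Col-0 (SD, n = 3 each), a difference of -0.37 ± 0.10 on the log2 scale (edgeR adjusted p = 0.0315). The highest of the atd14-1 libraries, at 3.09 CPM, lay below the lowest of Col-0, at 3.73 CPM. The call was lost when any 1 of these 6 libraries was left out (adjusted p = 0.0506 to 0.118), and limma-voom gave an adjusted p of 0.548.

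CXE12, the most abundant member outside AtCXE15-OE, had 133.0, 128.4 and 134.6 CPM in atd14-1, against 151.0, 149.6 and 150.2 CPM in Col-0. The groups were well separated, and the log2 fold change was -0.19 ± 0.05 (edgeR adjusted p = 0.0143). Its direction held, but not its call, with scaling by library size alone, under which the median log2 fold change of all genes stood at 0.08 (log2 fold change of CXE12 -0.11, adjusted p = 0.119), and without atd14-1 replicate 2 (-0.17, adjusted p = 0.0751). In the same libraries 4 of the 5 leaf genes, LHCB2.1, CAB3, LHCA1 and RCA, which encode light-harvesting proteins and Rubisco activase, were lower than in Col-0, and the seed storage gene CRA1 was higher (edgeR adjusted p = 0.0141). The part of these differences in the level of CXE12 was not tested.

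CXE17 had its higher values in atd14-1 and did not pass the test. It had 3.67, 3.21 and 3.75 CPM in atd14-1, against 2.55, 2.26 and 2.00 CPM in Col-0, 0.64 ± 0.25 on the log2 scale (edgeR adjusted p = 0.132). A fit to these 6 libraries alone called it (adjusted p = 0.0412), the single call among 15 alternatives. The atd14-1 libraries lay above all those of Col-0. CXE18 likewise did not overlap, at 30.7, 30.02 and 32.3 CPM in atd14-1 and 29.6, 29.5 and 25.6 CPM in Col-0 (log2 fold change 0.14 ± 0.07, edgeR adjusted p = 0.282). Non-overlapping members were thus 4 of 10, with 31.5% among all genes. Log2 fold changes of the other 6 lay between -0.20 in CXE13 and -0.01 in CXE8.

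**Figure D3:**
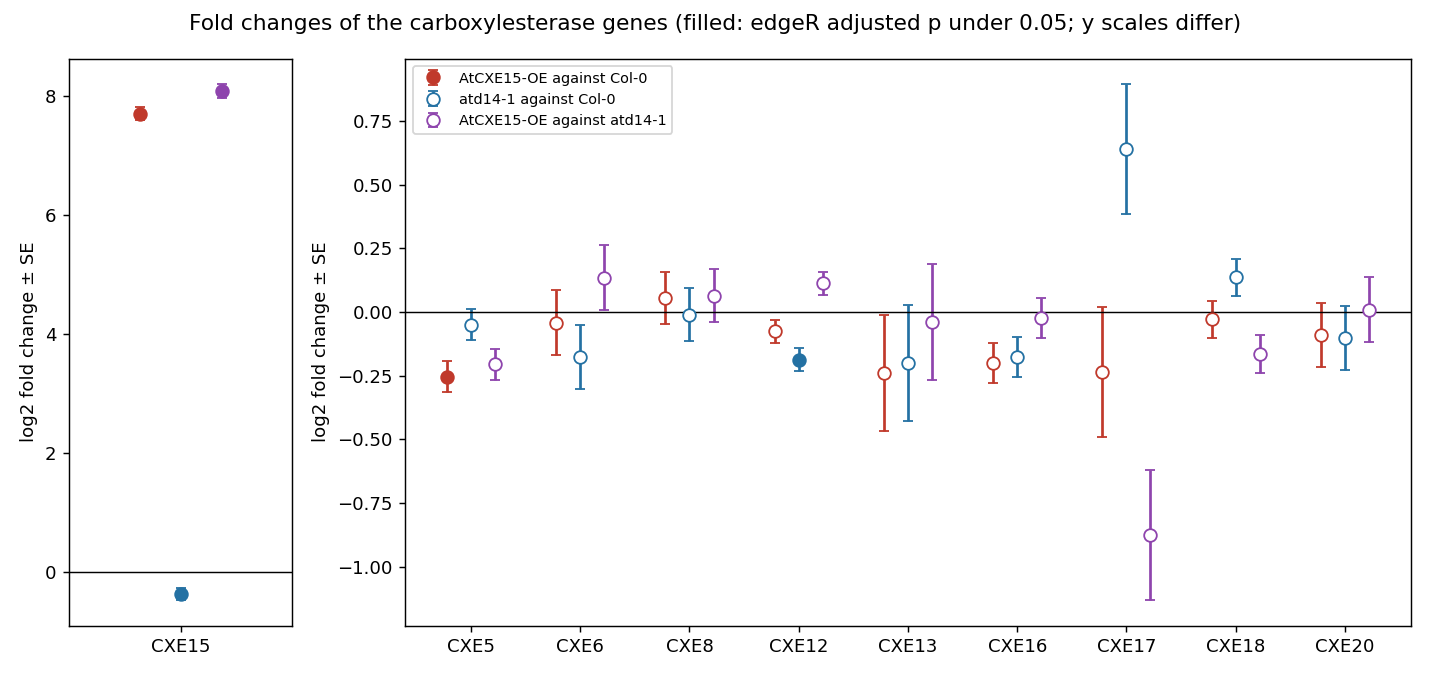
Log2 fold change ± SE of each gene in the 3 comparisons, with filled points where the edgeR adjusted p was under 0.05 and separate y scales for CXE15 and the other 9 genes. CXE15 lies at 7.70 and 8.08 in the comparisons of AtCXE15-OE with Col-0 and atd14-1; among the others only CXE5 in AtCXE15-OE against Col-0 (-0.25) and CXE12 in atd14-1 against Col-0 (-0.19) are filled.

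Set directly against atd14-1, AtCXE15-OE differed in CXE15 alone at an adjusted p under 0.05, with 1 member of 10 higher and 0 lower by edgeR, while 6.94% of all genes were called, 4.12% higher and 2.82% lower. The log2 fold change of CXE15 was 8.08 ± 0.12 (edgeR adjusted p = 3.91e-12). At an unadjusted p under 0.05 there were 5 members, and DESeq2 called 3 and limma-voom 2. The median of the members was -0.0064, with 5 on either side of 0, against -0.0028 over all genes.

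CXE17 was near the threshold in this comparison. It had 1.38, 2.84 and 1.54 CPM in AtCXE15-OE (57, 154 and 79 counts), against 3.67, 3.21 and 3.75 CPM in atd14-1 (142, 178 and 173 counts). AtCXE15-OE replicate 2 was well above the other libraries of its group, yet still below every atd14-1 library. The log2 fold change was -0.88 ± 0.25 (edgeR adjusted p = 0.0553), and without AtCXE15-OE replicate 2 it was -1.27 (adjusted p = 0.00735). DESeq2 and limma-voom called it (adjusted p = 0.0192 and 0.0358).

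CXE5 also stood near the threshold, at -0.21 ± 0.06 on the log2 scale in AtCXE15-OE against atd14-1 (edgeR adjusted p = 0.0576, DESeq2 adjusted p = 0.0276). CXE12 had a value of 0.11 ± 0.05 (edgeR adjusted p = 0.170) and CXE18 one of -0.16 ± 0.07 (0.220). In these 3 genes, as in CXE15 and CXE17, the libraries of the lines did not overlap, which is 5 of 10 members with 26% among all genes. CXE6, CXE8, CXE13, CXE16 and CXE20 overlapped and had log2 fold changes of -0.04 to 0.13.

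Levels of different genes were compared per length, as CPM per kilobase of the length that the table gives. That length departs from the exon length in RefSeq in either direction, as in CXE15 (1942 against 1812 bases) and CXE20 (1006 against 1358). The effect on the order, shares and ranks was not tested. In Col-0 the order was CXE12, CXE5, CXE6, CXE18, CXE16, CXE8, CXE20, CXE13, CXE15 and CXE17. CXE12 made up 50.4% of the summed level of the 10 genes in Col-0 and CXE15 made up 0.807%. CXE15 ranked 17478th of the 21425 genes tested, and CXE12 ranked 773rd.

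In AtCXE15-OE, CXE15 was the highest member at 423 CPM per kilobase, 64.7% of the members' sum, and ranked 137th of all genes tested. CXE12 followed at 120.1 CPM per kilobase. In atd14-1 CXE15 was the lowest of the 10, at 1.56 CPM per kilobase, against 2.03 in Col-0.

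The order of the other genes was nearly the same in the 3 groups. CXE12 stood at 111 CPM per kilobase in atd14-1 and 126 in Col-0, and CXE5 at 42.7 in AtCXE15-OE, 49.3 in atd14-1 and 51.0 in Col-0. CXE6 and CXE18, neighbours in the order, did not differ beyond their spread in AtCXE15-OE (18.7 and 18.8 CPM per kilobase) or Col-0 (19.3 and 19.2). At the low end, CXE13 and CXE15 in Col-0 (2.16 and 2.03 CPM per kilobase) and CXE13 and CXE17 in AtCXE15-OE (1.83 and 1.47) also lay within each other's spread. CXE16, CXE8 and CXE20 kept their places between these groups, from 14.1 CPM per kilobase for CXE16 in Col-0 to 6.32 for CXE20 in atd14-1.

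Without CXE15, the summed level of the other 9 members was 224.4, 237.1 and 231.6 CPM per kilobase in AtCXE15-OE, 229.2, 222.7 and 238.8 in atd14-1 and 253.4, 248.5 and 245.4 in Col-0. All libraries of both lines lay below those of Col-0, and the lines overlapped each other. CXE12 and CXE5 make up most of this sum, so it largely restates them.

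**Figure D4:**
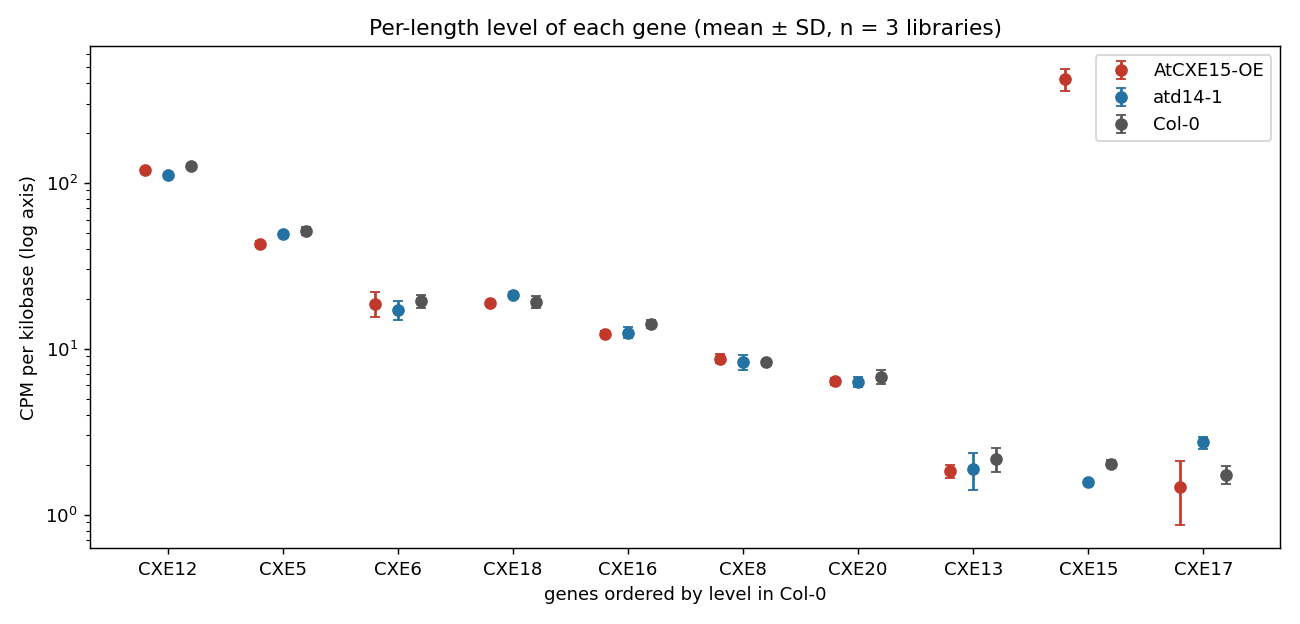
Level of each gene per length, in CPM per kilobase on a log axis, as mean ± SD of 3 libraries in AtCXE15-OE, atd14-1 and Col-0, with genes ordered by their Col-0 level. The genes other than CXE15 keep close to their Col-0 level, apart from CXE17 at 2.72 in atd14-1 against 1.74 in Col-0. CXE15 stands at 423 in AtCXE15-OE, against 1.56 in atd14-1 and 2.03 in Col-0.

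The likeness of patterns was measured as the root mean square difference between standardised log2 CPM over the 9 libraries, where 0 is an identical pattern. The genes nearest to CXE15 were NPQ1 (0.198), AT5G06120 (0.213), AT4G03230 (0.226), FBA5 (0.255) and AT4G38950 (0.271). NPQ1, which encodes violaxanthin de-epoxidase, averaged 83.7 CPM in AtCXE15-OE, 70.5 CPM in atd14-1 and 71.9 CPM in Col-0. The likeness is thus one of standardised pattern over the libraries and not of the size of the difference. The genes nearest to CXE5 were AT1G32530 (0.240) and LRS1 (0.247). Nearest to CXE12 were the arginase gene ARGAH2 (0.152), at 57.6 CPM in AtCXE15-OE, 50.9 CPM in atd14-1 and 62.5 CPM in Col-0, and the glucosyltransferase gene UGT73B1 (0.160). These values describe 9 libraries chosen over all genes tested and carry no test.

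Of 10 further family loci with alpha/beta hydrolase or gibberellin receptor annotation, none was called in AtCXE15-OE against Col-0 by edgeR, DESeq2 or limma-voom, with 1 at an unadjusted p under 0.05, and their median log2 fold change was -0.01. At the 2.27% called among all genes, few or no calls among 10 are what the background gives. In atd14-1 against Col-0, 1 was higher and 0 lower, which is near the 11.9% of all genes. This was AT2G03550, at 60.8 ± 1.11 CPM in atd14-1 and 53.3 ± 1.74 CPM in Col-0 (log2 fold change 0.19 ± 0.06, edgeR adjusted p = 0.0426). GID1B stood at 0.18 ± 0.07 there on the log2 scale (edgeR adjusted p = 0.150). None was called between AtCXE15-OE and atd14-1 by any of these tools, again with 1 at an unadjusted p under 0.05, where 6.94% of all genes were called. These counts show nothing particular to the family.

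Methylesterases, a separate alpha/beta hydrolase family that removes methyl groups from hormone and other esters, were counted in the same way. Of 16, 15 were tested and MES4 was at 0 counts in every library. Compared with Col-0, AtCXE15-OE had 1 methylesterase of 15 that rose and 0 that fell, with 2.27% of all genes called in either direction. MES10 averaged 43.0 ± 6.66 CPM in AtCXE15-OE and 29.2 ± 1.54 CPM in Col-0 (log2 fold change 0.56 ± 0.10, edgeR adjusted p = 0.00741). In atd14-1 against Col-0, 3 rose and 2 fell, with 11.9% of all genes called. Among them MES10 differed by 0.59 ± 0.10 on the log2 scale (edgeR adjusted p = 0.00124), MES18 by 1.27 ± 0.23 (0.00196) and MES2 by -0.34 ± 0.07 (0.00850). Between AtCXE15-OE and atd14-1, where 6.94% of all genes were called, 2 were higher and 0 lower, MES16, which acts in chlorophyll breakdown, by 0.58 ± 0.14 (edgeR adjusted p = 0.0211) and MES2 by 0.31 ± 0.07 (0.0215). The list's median log2 fold changes were -0.0080, -0.03 and 0.08 in the 3 comparisons.

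Of 6 loci listed for strigolactone synthesis, 2 rose and 0 fell in AtCXE15-OE compared with Col-0, 3 rose and 1 fell in atd14-1 compared with Col-0, and 0 higher and 3 lower in AtCXE15-OE against atd14-1. Over all genes, 2.27%, 11.9% and 6.94% were called in these comparisons, and the same shares apply to the signalling list. The carotenoid cleavage dioxygenase gene CCD8 had log2 fold changes of 1.81 ± 0.14 (edgeR adjusted p = 6.89e-06), 2.79 ± 0.14 (3.37e-08) and -0.98 ± 0.13 (0.000533) in these comparisons. CCD7, which encodes the dioxygenase acting before CCD8, had 27, 66 and 62 counts in AtCXE15-OE, 101, 138 and 102 counts in atd14-1 and 4, 10 and 7 counts in Col-0, with values of 2.57 ± 0.39 (edgeR adjusted p = 0.00272), 3.81 ± 0.39 (2.16e-05) and -1.24 ± 0.32 (0.0336). LBO1, which encodes an oxidase late in the pathway, had values of 0.19 ± 0.09 (edgeR adjusted p = 0.377), 0.55 ± 0.09 (0.000924) and -0.35 ± 0.09 (0.0277). D27 was the gene that fell in atd14-1, with values of -0.41 ± 0.16 (edgeR adjusted p = 0.269), -0.56 ± 0.16 (0.0328) and 0.15 ± 0.16 (0.657). Of 10 loci listed for strigolactone and karrikin signalling, 2 fell in AtCXE15-OE compared with Col-0 and 0 rose, namely SMXL6 (-0.29 ± 0.06, edgeR adjusted p = 0.0203) and SMXL7 (-0.24 ± 0.06, 0.0397), which encode repressors that strigolactone perception by D14 removes. In atd14-1 against Col-0, D14 and SMXL6 (-0.47 ± 0.06, edgeR adjusted p = 0.000144) were lower and 0 were higher, and between AtCXE15-OE and atd14-1 edgeR called 1, D14, which was higher. DESeq2 called 3 of this list in atd14-1 against Col-0, where edgeR called 2, and 2 between the lines. The comparisons of the 2 lines with Col-0 share the Col-0 libraries, so these counts are not independent of each other.

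**Figure D5:**
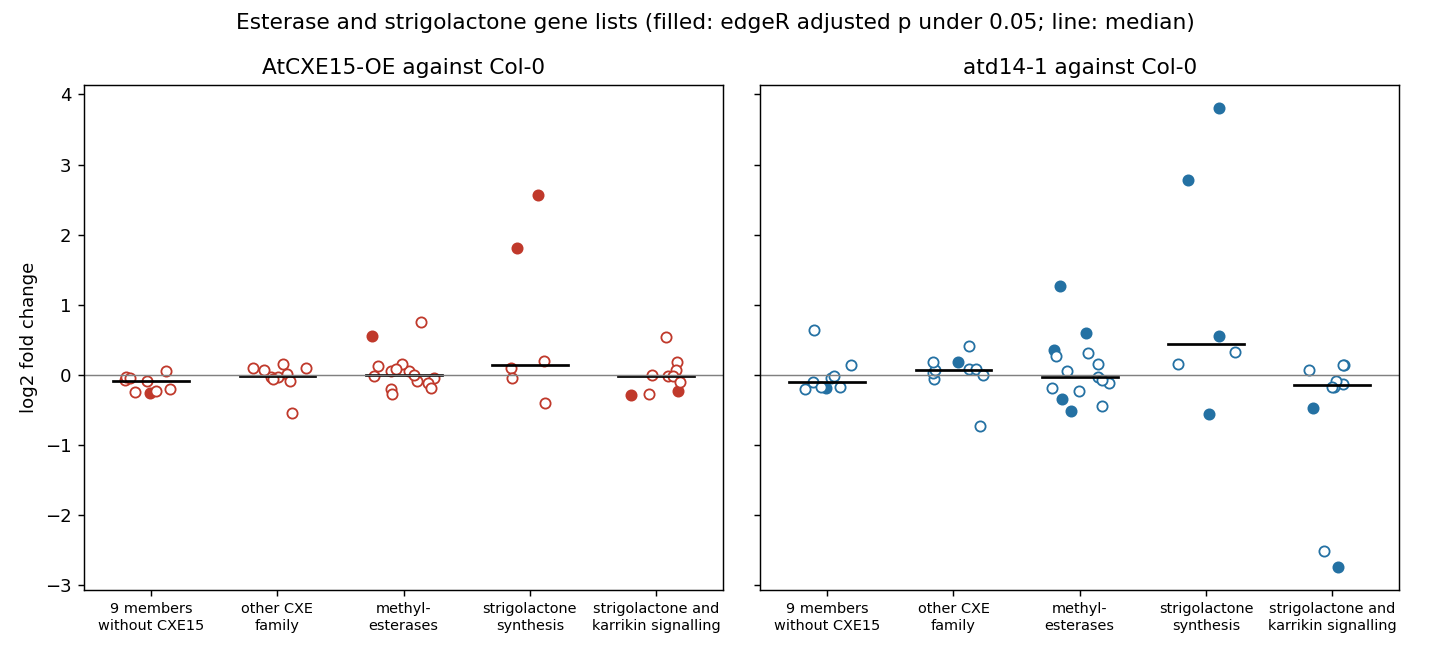
Log2 fold change of single genes in AtCXE15-OE against Col-0 (left) and atd14-1 against Col-0 (right) for the 9 carboxylesterase genes without CXE15, other CXE family loci, methylesterases, and the strigolactone synthesis and signalling lists; filled points passed the edgeR test and lines are medians. Carboxylesterase points lie near 0 in both panels, with CXE17 at 0.64 in atd14-1 as the member farthest from it.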

How the data were processed

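The deposited table holds raw read counts per gene for 9 libraries, 1 column each, with a locus span and a length in bases. Per the submitters' processing notes, the build was TAIR10 and the tools included DESeq 1.39.0, SAMtools 0.1.18, HISAT2 and Picard. What counted the reads, whether by strand, and how reads that map more than once were handled is not given in the sources used here. Library construction, per the labels' protocols, did not mark the strand.

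From these counts, edgeR 4.0.16 (R 4.3.3) was used to test every gene that passed a filter (quasi-likelihood test, robust, TMM scaling, group-aware filter on low counts), with all 9 libraries in 1 fit of group means, 3 contrasts, and Benjamini-Hochberg adjustment over 21425 genes at a threshold of 0.05. The SE is the absolute log2 fold change divided by the square root of F, and is approximate. Alternatives used DESeq2 1.42.0, limma-voom (limma 3.58.1), other scalings and filters, a replicate block, 6 libraries at a time, each library left out, and counts summed over overlapping loci. Replicate numbers were checked for pairing by correlating deviations from group means. Sequences and gene models are from RefSeq TAIR10.1; the coordinates of the table stay within its chromosome lengths. Coding sequences were aligned with Biopython 1.88.

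All 10 members are named, with D14, up to 3 genes per list and comparison with the smallest adjusted p, the 5 genes nearest to CXE15 and 2 nearest to each other called member, and loci that overlap a member. Tissue markers were fixed as lists of their own, and those called in atd14-1 are named beside CXE12. RBCS1A and PYK10 are named with the marker sums. AT4G36470 and AT3G24420 of the strigolactone lists, and 7 loci of the family list, carry no symbol in the annotation. Members were selected by locus ID with no cutoff on a value, but both members and lists were chosen with earlier results of these data known, so their counts are descriptions.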

Additional observations from a re-analysis of the deposited data

Results flagged for a closer look

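CXE15 differed in opposite directions from Col-0 in the 2 lines, with a log2 fold change of 7.70 in AtCXE15-OE and -0.37 in atd14-1. The difference between the lines was itself tested, as the direct contrast of AtCXE15-OE with atd14-1, and was 8.08 ± 0.12 (SE; edgeR adjusted p = 3.91e-12). AtCXE15-OE is the line made to overexpress this gene, so that contrast does not test the direction in atd14-1. The lower level in atd14-1 passed the threshold in 6 of 15 alternatives. With 1 library left out it passed in 0 of 6 fits (edgeR adjusted p up to 0.118).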

How the results depend on the processing

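In AtCXE15-OE against Col-0, the log2 fold change of CXE15 was 7.58 to 7.78 over 15 alternatives, past the threshold in each. With counts summed over overlapping loci on a strand it was 0.032 (adjusted p = 0.796), since the long CXE15 row then joins 690 loci; the same summing made CXE13 0.14 in AtCXE15-OE against atd14-1, in a group of 626 loci that also holds CXE12. With rows over 100 kb left out of the summing, an alternative added after seeing the data, each member stayed alone. The 15 alternatives counted here and above include this one and leave out the planned summing over all overlapping loci. Members called in AtCXE15-OE against Col-0 were 2 in the test reported and 1 to 2 with a library left out. They were 1 with library size only, with the replicate block and with 6 libraries, and this 1 was CXE15. With loci summed there was also 1, which was not CXE15 (edgeR adjusted p = 0.796 there). In atd14-1 against Col-0 the members called were 2, with 1 under library size only, limma-voom and the replicate block. With a library left out they were 0 to 1 (0 without atd14-1 replicate 2). In AtCXE15-OE against atd14-1 they were 1, with 3 under library size only and DESeq2, 2 under limma-voom and both ways of summing loci, and 1 to 2 with a library left out; the cause was not tested. CXE5 in AtCXE15-OE against Col-0 ranged from -0.29 to -0.21 and was called in 7 of 15 alternatives, CXE15 in atd14-1 against Col-0 from -0.41 to -0.30 and in 6, and CXE12 there from -0.20 to -0.11 and in 13.

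Over all genes, calls in AtCXE15-OE against Col-0 were 487, with 840 by DESeq2, 294 with loci summed, and 306, 313 and 287 without Col-0 replicate 1, Col-0 replicate 2 and AtCXE15-OE replicate 3. In atd14-1 against Col-0 they were 2556, with 1518 with loci summed and 1704 without atd14-1 replicate 2. In AtCXE15-OE against atd14-1 they were 1486, with 944 with loci summed, 2216 without AtCXE15-OE replicate 1, and 776 and 837 without AtCXE15-OE replicates 3 and 2. Without atd14-1 replicates 1, 2 and 3 there were 820, 769 and 913.

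The replicate numbers do not pair the libraries. Deviations of same-numbered libraries correlated at -0.049 to 0.043 over 9 pairs, and 4 of 18 best matches fell on the own number. With the replicate block, calls over all genes were 461, 2576 and 1561 in the 3 comparisons, and CXE5 in AtCXE15-OE against Col-0 and CXE15 in atd14-1 against Col-0 were no longer called (adjusted p = 0.0567 and 0.0661).

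CXE13, CXE15 and CXE17 stood at a few CPM outside AtCXE15-OE. SEs against Col-0 in AtCXE15-OE were 0.23 for CXE13 and 0.26 for CXE17 on the log2 scale, and 0.05 for CXE12; they hold the spread between libraries as well as counting error, and the part of each was not tested.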
